A study of Caenorhabditis elegans with 12 samples.

Results

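Oocyte -3, the middle one of 3 positions sampled in the gonad of Caenorhabditis elegans, was set against the positions on both sides of it. Its 4 libraries, of 12 in the series, were compared with the mean of the position means of oocyte -1 (4 libraries) and oocyte -5 (4 libraries). The comparison picks out genes that stood higher or lower in the middle of the row than the mean of its sampled ends. A gradient of equal steps in level along the row cancels in it, while one of equal folds comes out lower in the middle. So does a gene high at 1 end only, even where its middle level is not below that of the other end. Of the 46903 genes in the count table, 8718 passed a filter on low counts, and the comparison covers all of those 8718.

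All 3 groups were single oocytes of adult C. elegans with the genotype Wildtype and no treatment, and the labels give no strain, age in days, sex or animal of origin. Numbering starts beside the spermatheca, so oocyte -1 is the oldest and oocyte -5 the youngest. The oocytes directly beside -3 were not analysed here, and "neighbours" below means oocytes -1 and -5. Each oocyte was lysed fresh, frozen and turned into a library with a PCR-based kit for 3' ends of polyadenylated RNA. The reads are not independent molecules, and intervals given below cover counting error only.

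Oocytes of this worm grow in single file in the proximal gonad, arrested in diakinesis of meiosis I and wrapped by contractile gonadal sheath cells. They take up yolk through the receptor RME-2 and fill with maternal mRNA, much of which is held untranslated by RNA-binding proteins such as OMA-1 and PUF-5 until maturation or early embryogenesis. Transcription is largely shut down in the most proximal oocytes, and the nearest one to the spermatheca is the next to mature and be ovulated.

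Levels are CPM, counts scaled to a common library size with TMM factors. The level at a position is the mean of its 4 oocytes, the neighbour level is the mean of the -1 and -5 levels, and the ratio is log2 of the -3 level over the neighbour level. Since each library is 1 cell and no animals are named, a position counts as 1 sample, and the differences below are descriptions of these 12 oocytes with no test. A gene is called separated when all 4 oocytes -3 lay above, or below, all 8 neighbours.

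Libraries held 8358019 to 20446599 counts, and 2 of the 4 oocytes -3 stood apart from the other 10 libraries. Replicates 1 and 3 of oocyte -3 held the highest value of all 12 oocytes in 1665 and 1254 of the 8718 genes, against 487 and 489 genes in replicates 2 and 4 and 469 to 787 genes in the neighbours. The same pair held the lowest value in 1951 and 1334 genes, against 391 and 486 genes in replicates 2 and 4 and 301 to 1048 genes in the neighbours. At an equal depth of 8358019 counts they had 8448 and 8045 genes with a count, while the other -3 oocytes had 9416 and 9035 and no neighbour had fewer than 9240. Across the 5187 genes of at least 20 CPM, Pearson's r of log2(CPM + 1) was 0.81 between replicates 1 and 3 and 0.94 between replicates 2 and 4. Over these shared genes the median r with the 8 neighbours was 0.84 for replicates 1 and 3 and 0.93 for replicates 2 and 4. Results are therefore given with and without replicates 1 and 3, and the part of these libraries in a result was not tested beyond that.

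**Figure D1:**
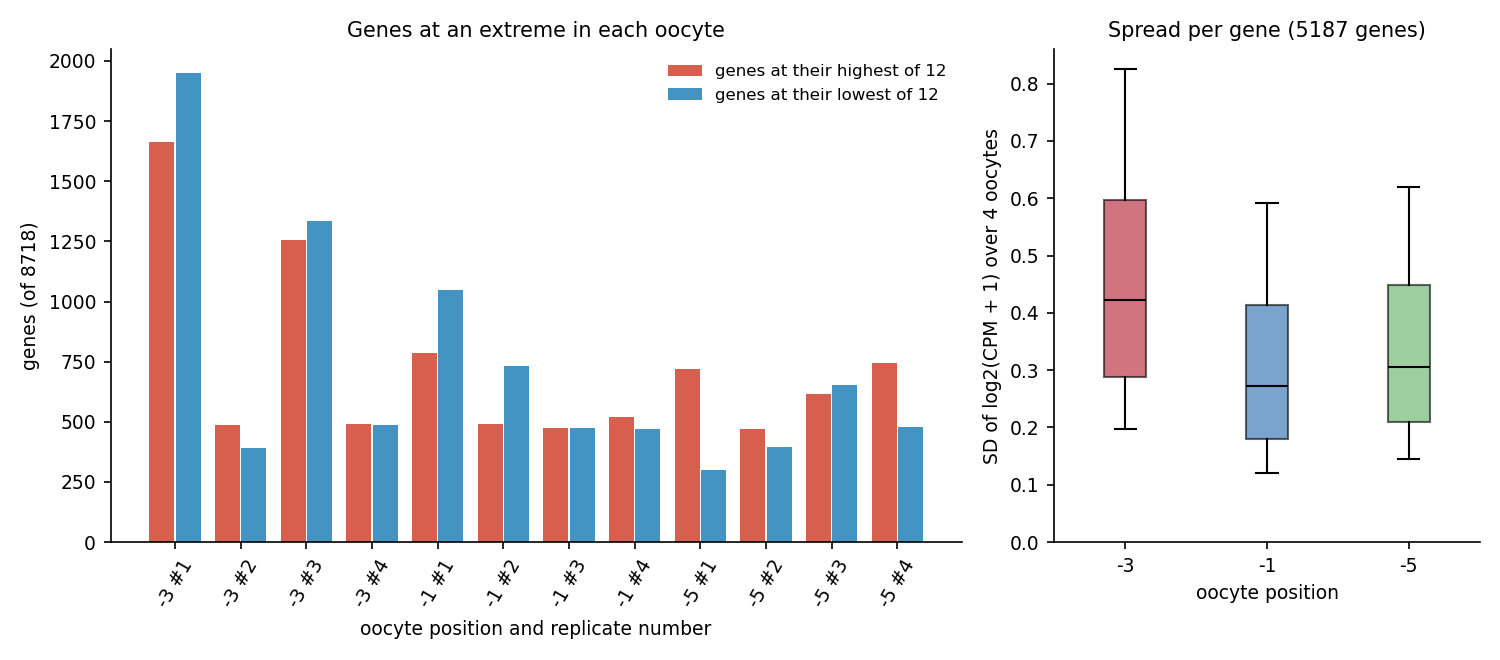
Left, number of the 8718 genes for which each oocyte holds the highest (red bars) or lowest (blue bars) level of all 12, by position and replicate number. Right, the SD of log2(CPM + 1) over the 4 oocytes of a position for 5187 genes of at least 20 CPM (line, median; box, quartiles; whiskers, percentiles 10 and 90). Replicates 1 and 3 of oocyte -3 have the tallest pairs of bars, 1665 and 1951 genes and 1254 and 1334 genes, and the median SD is 0.422 at -3, against 0.273 at -1 and 0.306 at -5.

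Oocytes -3 differed among themselves more than the oocytes of either neighbouring position did. The median SD of log2(CPM + 1) was 0.422 over the 4 oocytes -3, against 0.273 over oocytes -1 and 0.306 over oocytes -5. Of the 5187 genes of at least 20 CPM, 3014 (58.1%) varied most at -3, 914 (17.6%) at -1 and 1259 (24.3%) at -5. The wider spread at -3 came with replicates 1 and 3. It was 0.323 without replicate 1 and 0.381 without replicate 3. Without both, the remaining 2 oocytes differed by a median SD of 0.203. A median SD over fewer oocytes tends to come out smaller, so 0.203 cannot be set against the SDs over 4.

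The genes with the widest spread at -3 were of 2 kinds. C44B7.5 had 0.646, 19.3, 595 and 11.9 CPM in oocytes -3, against 264, 7.83, 85.8 and 35.3 CPM in oocytes -1 and 19.4, 209, 11.7 and 183 CPM in oocytes -5. T04G9.7 had 0.388, 24.9, 226 and 11.16 CPM in oocytes -3, against 154, 18.4, 66.1 and 34.0 CPM in -1 and 54.9, 148, 35.98 and 788 CPM in -5. The peroxidase gene skpo-1 had 1.68, 40.01, 221 and 8.44 CPM in oocytes -3, against 203, 18.03, 87.2 and 10.3 CPM in -1 and 39.1, 82.4, 32.8 and 998 CPM in -5. All 3 genes were lowest in replicate 1 of oocyte -3 and highest among oocytes -3 in replicate 3, and the levels of all 3 positions overlapped. Their ratios of 0.62, -1.31 and -1.44 became -3.27, -3.74 and -3.46 without replicate 3 of oocyte -3, and without replicate 4 of oocyte -5 the ratio of T04G9.7 was -0.18 and that of skpo-1 0.048. Without the 3 neighbours with a low share of counts in abundant genes, described below, T04G9.7 was at -0.0069 and skpo-1 at 0.50. The other kind was low in a single oocyte. The gene scpr-1 was at 0.129, 41.7, 35.7 and 33.7 CPM in oocytes -3, against 39.7, 43.5, 32.9 and 44.8 CPM in -1 and 45.8, 32.0, 12.5 and 49.95 CPM in -5, so that replicate 1 had almost none of a transcript that the other 11 oocytes held. The claudin-like gene clc-26 had 67.2, 8.84, 0.124 and 67.3 CPM in oocytes -3, against 5.41, 46.2, 29.0 and 40.5 CPM in -1 and 14.1, 85.1, 50.2 and 29.9 CPM in -5, with almost none in replicate 3. The ratios of scpr-1 and clc-26 were -0.44 and -0.066, both close to 0 beside that spread.

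For most genes the -3 level lay near that of its neighbours. The median ratio over the 8718 genes was -0.034 with quartiles at -0.37 and 0.34. A ratio of at least 1, a doubling, was found for 554 genes (6.35%), and a ratio of -1 or less for 710 genes (8.14%). These shares depended on level, since 1174 of the 3531 genes under 20 CPM (33.2%) were past the fold in either direction, against 90 of the 5187 genes of at least 20 CPM (1.74%). Of those 5187 genes, 53 (1.02%) were past the fold higher and 37 (0.713%) lower. Without replicates 1 and 3 of oocyte -3 these counts were 29 and 60, and 19 and 22 genes were past the fold in the same direction both times.

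The -3 level was above both neighbour levels for 3278 genes (37.6%) and below both for 3359 (38.5%), and lay between them or level with 1 of them for 2081. With levels scaled by total counts alone, 2526 genes were above both and 4189 below both, and 428 were past the fold higher and 807 lower, so the near balance depends on the scaling. Leaving out 1 tied gene, oocyte -3 held the middle value for 2080 genes (23.9%), oocyte -1 for 3069 (35.2%) and oocyte -5 for 3568 (40.9%). Without replicates 1 and 3 of oocyte -3 the middle value lay at -3 for 2404 genes (27.6%), at -1 for 3232 (37.1%) and at -5 for 3078 (35.3%). In either set of oocytes the -3 position was the one least often at the middle level, although the gap narrowed without the 2 oocytes that stood apart. A mean over oocytes that differ more, or over fewer oocytes, tends to fall at an extreme more often. The median SD was 0.422 at -3, against 0.273 at -1 and 0.306 at -5, and the second set left 2 oocytes -3 beside 4 at each other position. These counts therefore cannot be read as a trait of the position, and the part of the spread in them was not tested.

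All 4 oocytes -3 lay above all 8 neighbours for 106 genes (1.22%) and below all 8 for 67 genes (0.769%). Among the 5187 genes of at least 20 CPM the counts were 78 above (1.5%) and 33 below (0.636%), and 28 of the 78 and 5 of the 33 were also past the fold. The same measure applied to the other positions, which share these libraries, gave 52 genes above and 15 below for oocyte -1, and 63 above and 41 below for oocyte -5. Of the 67 genes separated below, 34 were under 20 CPM, and 11 of those 67 had fewer than 3 counts over the 4 oocytes -3.

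**Figure D2:**
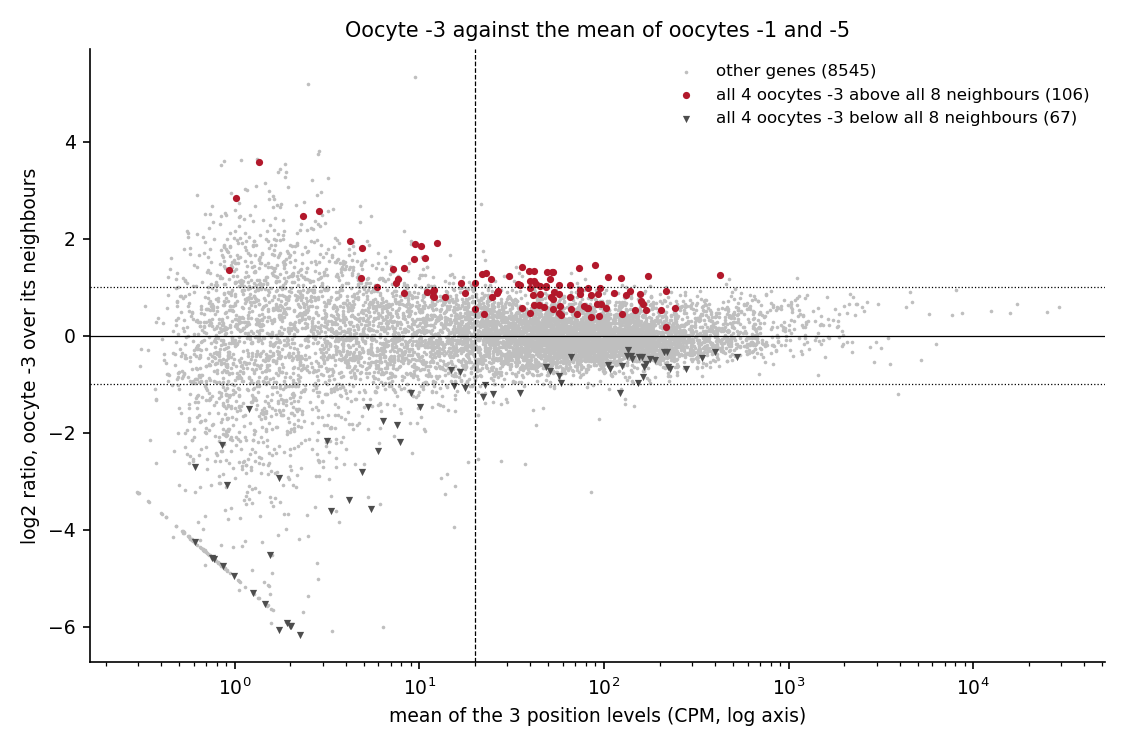
Each point is 1 of 8718 genes, with the mean of the 3 position levels in CPM on the x axis (log axis) and the log2 ratio of oocyte -3 over its neighbours on the y axis. Red points are the 106 genes with all 4 oocytes -3 above all 8 neighbours, dark triangles the 67 genes with all 4 below; dotted lines mark ratios of 1 and -1 and the dashed line 20 CPM. Ratios fan out at low levels, while the separated genes of at least 20 CPM have ratios from -1.25 to 1.47.

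The 12 separated genes with the highest ratios included several with known parts in the germ line. The largest ratio belonged to zfp-2, a zinc finger gene (WBGene00009448, chromosome II, 9557646 to 9559516). It had 204, 125, 163 and 130.1 CPM in oocytes -3, against 35.8, 65.8, 55.8 and 58.3 CPM in oocytes -1 and 39.2, 84.7, 66.1 and 43.8 CPM in oocytes -5. Its lowest oocyte -3 stood clear of its highest neighbour, and its ratio was 1.47. From summed counts its level was 156 CPM (exact Poisson interval at 95%, 153 to 159) in oocytes -3, against 51.7 CPM (exact Poisson interval at 95%, 49.9 to 53.5) in -1 and 56.8 CPM (exact Poisson interval at 95%, 54.8 to 58.8) in -5.

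The Notch target sygl-1, which keeps germline stem cells in the distal gonad from differentiating, was second (WBGene00012104, chromosome I, 12483809 to 12486235). It had 85.4, 46.1, 57.6 and 58.5 CPM in oocytes -3, against 13.6, 38.3, 19.1 and 21.3 CPM in oocytes -1 and 15.7, 32.0, 32.3 and 12.7 CPM in oocytes -5, and a ratio of 1.42. The Nanos homologue nos-2, a maternal transcript that is translated in the germline blastomeres of the embryo, was the most abundant of the 12 (WBGene00003784, chromosome II, 7065618 to 7067051). It had 961, 495, 718 and 609 CPM in oocytes -3, against 158, 418, 296 and 268 CPM in oocytes -1 and 153, 435, 402 and 188 CPM in oocytes -5, a ratio of 1.26. For both genes the groups did not overlap, although the highest neighbours of nos-2, at 435 and 418 CPM, came close to the lowest oocyte -3 at 495 CPM.

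The gene apc-11 encodes the RING finger subunit of the anaphase-promoting complex, which drives the exit from meiotic metaphase (WBGene00000145, chromosome III, 4593769 to 4594426). It had 129, 60.05, 80.1 and 59.7 CPM in oocytes -3, against 26.7, 38.2, 38.1 and 33.9 CPM in oocytes -1 and 28.4, 34.3, 36.8 and 26.6 CPM in oocytes -5, a ratio of 1.322. Its 8 neighbours lay in a narrow band from 26.6 to 38.2 CPM, below every oocyte -3. The nuclear export factor gene nxf-2 (WBGene00003835, chromosome V, 14416067 to 14417835) had 127, 50.4, 87.5 and 90.8 CPM in oocytes -3, against 31.3, 50.2, 39.3 and 36.1 CPM in oocytes -1 and 20.2, 30.8, 49.2 and 27.3 CPM in oocytes -5, a ratio of 1.321. Its lowest oocyte -3 lay only just above its highest neighbour. In rde-10 (WBGene00021634, chromosome I, 3547071 to 3552005), which is needed to amplify the RNA interference response, the ratio was 1.28, with 47.5, 25.01, 34.2 and 36.5 CPM in oocytes -3, against 2.14, 23.9, 11.6 and 13.97 CPM in -1 and 14.3, 16.3, 22.98 and 13.1 CPM in -5. The fumarase gene fum-1 of the citric acid cycle (WBGene00001503, chromosome III, 7465605 to 7467633) had a ratio of 1.31, with 54.3, 28.1, 30.8 and 39.0 CPM in oocytes -3, against 8.14, 20.7, 14.4 and 16.9 CPM in -1 and 15.1, 19.1, 22.01 and 6.76 CPM in -5.

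The other 5 of the 12 genes carry sequence names only. These are C06H2.7 (ratio 1.397, WBGene00007391, chromosome V, 11143062 to 11144758), C30H6.9 (1.33, WBGene00007826, chromosome IV, 17379247 to 17380188), F32D8.5 (1.33, WBGene00009330, chromosome V, 10894800 to 10895953), F10E9.7 (1.322, WBGene00017358, chromosome III, 8305733 to 8326818) and Y48G1A.2 (1.24, WBGene00021658, chromosome I, 347469 to 348357). The exons of F32D8.5 overlap another gene over 31.1% of their length, so part of its count may belong to the partner. Leaving out any 1 oocyte kept the ratios of all 12 genes between 1.02 and 1.59. Without replicates 1 and 3 of oocyte -3 they were 0.87 to 1.319. Since the genes were picked as separated, their ratios stay above 0 by construction whichever oocytes are left out.

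The 12 separated genes with the lowest ratios had smaller differences. Among them rla-0, which encodes the P0 protein of the ribosomal stalk (WBGene00004408, chromosome I, 10567894 to 10569019), had 76.1, 66.2, 48.23 and 73.6 CPM in oocytes -3, against 205, 206, 109 and 99.4 CPM in oocytes -1 and 166, 141, 197 and 76.4 CPM in oocytes -5. Its ratio was -1.18, and its highest oocyte -3, at 76.1 CPM, and its lowest neighbour, at 76.4 CPM, almost met. The gene cct-3, a subunit of the CCT chaperonin that folds tubulin and actin (WBGene00018782, chromosome II, 2233540 to 2243539), had 57.5, 129, 117 and 123 CPM in oocytes -3, against 202, 150.1, 208 and 198 CPM in oocytes -1 and 226, 174, 182 and 191 CPM in oocytes -5. Replicate 1 was the lowest of its oocytes -3, and the ratio of -0.85 was -0.64 without it. The DNA damage recognition gene xpc-1 (WBGene00022296, chromosome IV, 1993089 to 2008993) had a ratio of -0.68, and the mitochondrial ribosomal gene mrps-9 (WBGene00017319, chromosome III, 8266062 to 8267841) one of -0.67.

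The others were sam-10 (ratio -1.25, WBGene00012990, chromosome II, 13321954 to 13330825), C18C4.7 (-1.19, WBGene00015968, chromosome V, 5550315 to 5567221), the glucuronosyltransferase family gene ugt-45 (-1.18, WBGene00021372, chromosome IV, 3748210 to 3751101) and lst-2, a negative regulator of EGF receptor signalling (-1.02, WBGene00003084, chromosome X, 4378004 to 4383366). Y39B6A.10 (-0.98, WBGene00012672, chromosome V, 19131531 to 19133603), Y82E9BR.18 (-0.97, WBGene00022350, chromosome III, 1467876 to 1483507), Y75B8A.7 (-0.83, WBGene00013544, chromosome III, 12152899 to 12160100) and Y54G11A.2 (-0.72, WBGene00013213, chromosome II, 14252357 to 14255705) complete the 12. Levels of sam-10 were 5.36, 14.2, 11.8 and 14.7 CPM in oocytes -3, against 28.5, 32.0, 27.4 and 27.4 CPM in -1 and 27.4, 21.995, 17.4 and 37.1 CPM in -5, with replicate 1 the lowest of all 12 oocytes. Leaving out any 1 oocyte kept the 12 ratios between -1.41 and -0.43, and without replicates 1 and 3 of oocyte -3 they were -1.103 to -0.38. Their sign is fixed by the choice of separated genes.

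**Figure D3:**
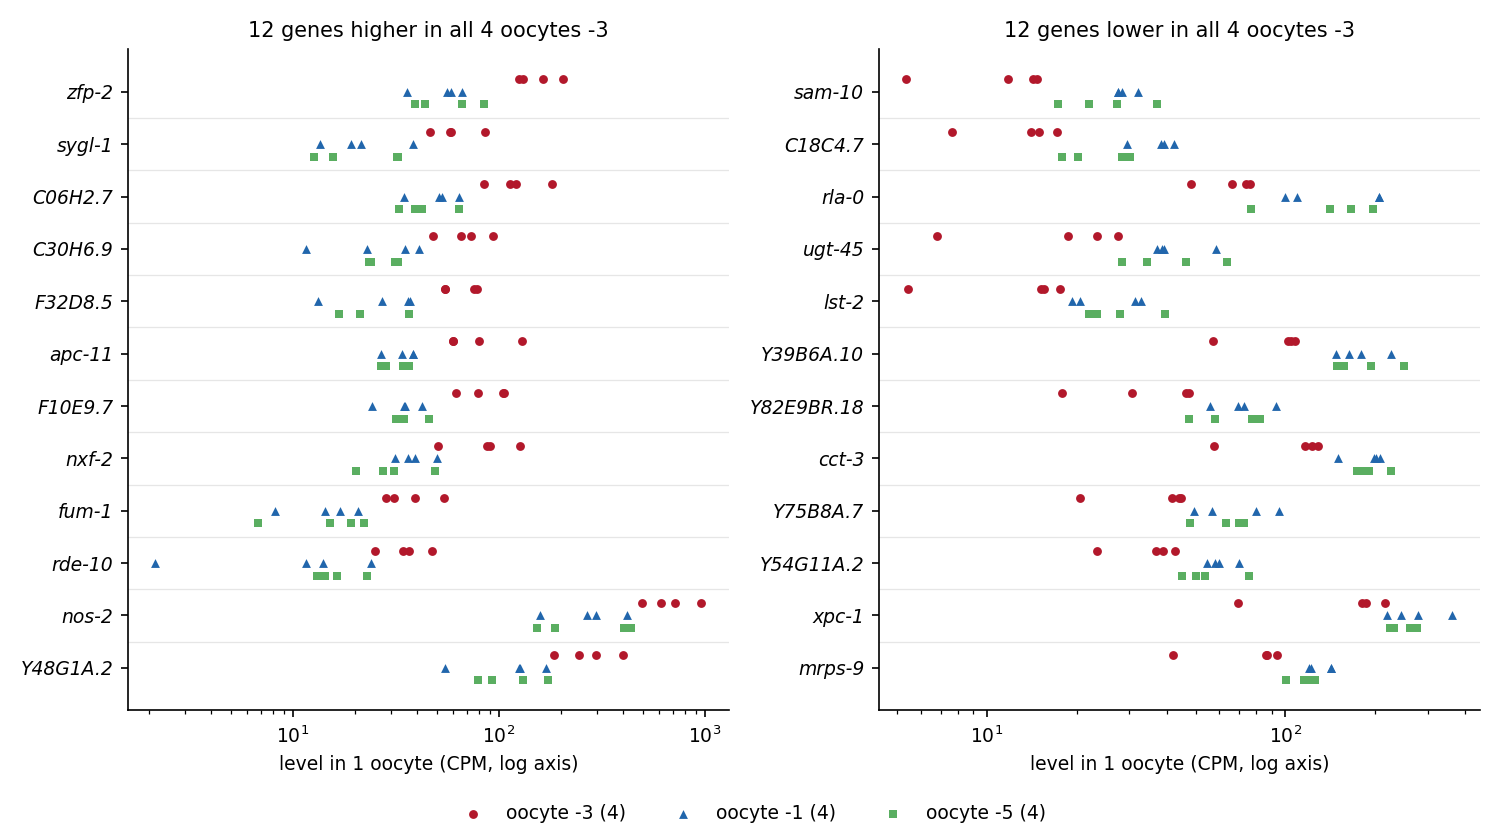
Levels in CPM (log axis) of 24 separated genes of at least 20 CPM, the 12 with the highest ratios on the left and the 12 with the lowest on the right. Each point is 1 oocyte, 4 per position: oocytes -3 as circles, -1 as triangles and -5 as squares. On the left every circle lies right of all triangles and squares of its gene, as for nos-2 with 495 CPM or more at -3 and 435 CPM or less in the neighbours; on the right every circle lies left of them.

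Further separated genes with known roles in germ cells or early embryos, chosen after their values were seen, lay above the neighbours. The piRNA pathway gene pid-2 had 106, 56.3, 76.9 and 84.2 CPM in oocytes -3, against 26.5, 45.1, 30.6 and 34.1 CPM in -1 and 27.6, 51.2, 44.3 and 28.6 CPM in -5, a ratio of 1.17. The Caudal homologue pal-1, whose maternal mRNA patterns the posterior embryo, had 103, 110.5, 208 and 111 CPM in oocytes -3, against 87.4, 67.8, 75.2 and 63.0004 CPM in -1 and 75.3, 79.7, 52.9 and 81.1 CPM in -5, a ratio of 0.87. The Holliday junction resolvase gene gen-1 had 402, 226, 358 and 278 CPM in oocytes -3, against 91.9, 213, 174 and 170.4 CPM in -1 and 131, 209, 224 and 116 CPM in -5. Its ratio was 0.93, with its lowest oocyte -3 barely above its highest neighbour. The ratio was 1.04 for the kinetochore gene kbp-1 and 0.94 for the maternal gene neg-1.

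Some of the genes separated above lie side by side. On chromosome III, apc-11 (4593769 to 4594426) overlaps erh-2 (4593176 to 4593832, ratio 1.06) by 64 bases on the opposite strand, which is 11.3% of the exonic bases of each. On the same chromosome, bcas-2 (6244672 to 6246039, ratio 0.42) overlaps gen-1 (6245932 to 6248234). On chromosome V, nxf-2, set-31 (14417903 to 14420096, ratio 0.87) and dhs-22 (14420071 to 14421450, ratio 0.91) follow each other within 67 bases. The counting used no strand, so reads from overlapping exons on opposite strands cannot be told apart.

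The gene erh-2 encodes a subunit of PETISCO, a complex that acts in piRNA biogenesis and in embryo development in this worm, and the other subunits were therefore looked up after its value was seen. In erh-2 the levels were 121, 63.3, 128 and 89.3 CPM in oocytes -3, against 41.5, 63.02, 46.5 and 53.8 CPM in oocytes -1 and 32.8, 57.8, 45.4 and 45.02 CPM in oocytes -5. Its lowest oocyte -3 and its highest neighbour differed by less than 1 CPM. The subunit genes tofu-6 and ife-3 were separated above as well, with ratios of 0.58 and 0.55. The adaptor genes pid-1 and tost-1 had ratios of 0.45 and 0.31 and overlapped their neighbours, and pid-3 had a ratio of -0.14. Without replicates 1 and 3 of oocyte -3 the ratio of erh-2 was 0.66 and that of tost-1 -0.098.

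Genes separated above were shorter and less abundant than genes separated below. Their median exonic length was 1157 bases (quartiles 726 and 1526) for the 78 genes above and 2178 bases (1327 and 2627) for the 33 below, beside 1565 bases (1019 and 2407) for all 5187 genes of at least 20 CPM. Median levels were 57.7 CPM above, 141 CPM below and 87.1 CPM overall. None of the 78 genes above and 1 of the 33 below, lst-2, lay on the X chromosome, which holds 8.08% of the 5187 genes. All 111 were protein-coding, as were 5162 of the 5187 genes.

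Replicates 1 and 3 held the extreme value for most separated genes, being the highest of the 4 oocytes -3 for 36 and 29 of the 78 genes above and the lowest for 24 and 9 of the 33 below. The same pair led over all 8718 genes, so this is not particular to the separated ones. There replicates 1, 2, 3 and 4 of oocyte -3 held the highest value of all 12 oocytes for 1665, 487, 1254 and 489 genes. They held the lowest for 1951, 391, 1334 and 486 genes. Without that pair the median ratio of the 78 was 0.69, against 0.87 with all 4, and that of the 33 was -0.40, against -0.61. The separation itself requires replicates 2 and 4 to lie outside the neighbours too.

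The share of counts taken by the 10 most abundant genes moved with the genes separated above. It was 11.24 to 21.7% in oocytes -3, against 7.42 to 8.20% in 3 of the neighbours (replicate 1 of -1, replicates 1 and 4 of -5) and 11.5 to 16.6% in the other 5. Of the 78 genes separated above, 59 (75.6%) were lower on average in those 3 neighbours than in the other 5, as were 2215 of all 5187 genes (42.7%). In zfp-2, for instance, the 3 lowest values of all were 35.8, 39.2 and 43.8 CPM in these 3 oocytes. With only the other 5 neighbours the median ratio of the 78 was 0.79, and the 12 leading genes had ratios of 0.90 to 1.27. Separated genes keep their sign in such a comparison by construction. The share's part in these differences was not tested beyond that.

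The 10 most abundant genes themselves were mostly higher in oocytes -3, without separation. The C-type lectin gene clec-87, the first of them, had 53823, 28172, 27024 and 40410.1 CPM in oocytes -3, against 12596, 32615, 19972 and 26432 CPM in -1 and 17104, 35771, 39159 and 15256 CPM in -5, a ratio of 0.59. The gene rmd-1, of the regulator of microtubule dynamics family, had the largest ratio of the 10, 0.94, with 17279.8, 5934, 14289.5 and 9821 CPM in oocytes -3, against 2557, 9413, 5115 and 6836 CPM in -1 and 2663, 10167, 9596 and 2837 CPM in -5. The nucleoside diphosphate kinase gene ndk-1 (0.50), F23A7.8 (0.66), the small heat shock gene sip-1 (0.48), F23A7.4 (0.50), the adenine nucleotide carrier ant-1.1 (0.47), rpl-12 (0.43) and clec-88 (0.45) were also higher. The elongation factor gene eef-1A.1 was lower (-0.16). Against the 5 neighbours with a like share of counts in these genes, the ratio of clec-87 was 0.23, that of ndk-1 0.093 and that of rmd-1 0.48. The neighbours left out were chosen for a low share in these same genes, so smaller ratios follow from that choice. Without replicates 1 and 3 of oocyte -3 the ratios of F23A7.8 and F23A7.4 were -0.27 and -0.22, and those of sip-1 and ndk-1 were 0.052 and 0.079.

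Of the 5 genes of at least 20 CPM with the largest ratios of all, the separated gene zfp-2 among them, 2 rested on a single oocyte. F59C6.16 (ratio 2.72) had 163, 13.3, 16.02 and 7.201 CPM in oocytes -3, against 11.7, 5.0995, 2.36 and 5.04 CPM in oocytes -1 and 7.53, 8.47, 16.0002 and 4.30 CPM in oocytes -5. F23D12.11 (1.75) had 129, 8.001, 12.11 and 17.4 CPM in oocytes -3, against 8.33, 0.820, 14.9 and 18.1 CPM in -1 and 5.23, 11.8, 20.5 and 19.2 CPM in -5. Replicate 1 alone carried both, and without it the ratios were 0.69 and 0.017. The ratio of the nuclear hormone receptor gene nhr-133 was 1.43, with replicates 1 and 3 high, and was 0.97 without replicate 1 and 0.048 without that pair. That of ham-1, a gene of asymmetric neuroblast division, was 1.57, with 1.04 or more on leaving out any 1 oocyte and 1.31 without the pair.

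The lowest ratios belonged to genes with high values at 1 of the neighbouring positions. The gap junction gene inx-8, which the gonadal sheath expresses, had 0.646, 17.6, 28.6 and 5.35 CPM in oocytes -3, against 152.03, 3.92, 39.3 and 4.44 CPM in oocytes -1 and 10.7, 46.1, 36.2 and 673 CPM in oocytes -5. Its ratio of -3.21 was -1.63 without replicate 4 of oocyte -5, which held 673 CPM. The chitinase gene cht-3 (-2.65) and ddo-3 (-1.84) were also highest in that oocyte, at 270 and 318 CPM. Without it their ratios were -1.303 and -0.32, and without replicate 3 of oocyte -3 they were -4.40 and -3.42. Y62H9A.5 (-2.57) had 17.6, 1.68, 0.248 and 6.22 CPM in oocytes -3, against 52.4, 67.2, 31.2 and 124.2 CPM in -1 and 3.57, 2.69, 25.12 and 0.0573 CPM in -5. ZK813.3 (-2.53) had 19.4, 0.0842, 0.124 and 0.412 CPM in oocytes -3, against 51.02, 40.2, 22.6 and 94.0 CPM in -1 and 3.25, 2.45, 16.6 and 0.458 CPM in -5. In both, every oocyte -1 lay above every oocyte of the other positions, and oocytes -3 and -5 overlapped. Without replicate 1 of oocyte -3 the ratios were -3.82 and -7.12.

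Most ribosomal protein genes had a lower level in oocyte -3, mostly by less than the fold. Of the 81 measured cytoplasmic ribosomal protein genes, 73 had a ratio below 0, beside 52.6% of all genes, and 64 had a -3 level below both neighbours, beside 38.5% of all genes. Their median ratio was -0.47, with rla-0 at -1.18, rps-6 at -1.06, rpl-9 at -1.02 and rpl-14 at -0.94. Of the 81, 3 genes were past the fold lower, beside 8.14% of all genes and 0.713% of genes of at least 20 CPM. Nearly all of the 81 were at that level. None was past the fold higher, beside 6.35% of all genes and 1.02% of genes of at least 20 CPM. The gene rla-0 alone was separated, beside 0.769% of all genes below. Their summed share of counts was 1.78% in oocytes -3 (1.33 to 2.47%), against 2.16% in oocytes -1 (1.61 to 2.88%) and 1.80% in oocytes -5 (1.12 to 2.33%), so by share oocytes -3 and -5 had close means and overlapped. That sum is weighted to rpl-12, by far the most abundant of the 81, whose ratio of 0.43 ran against most of the list. Its levels were 9311 CPM at -3, 6390 CPM at -1 and 7407 CPM at -5. The next, rpl-7A, had 882, 757 and 801 CPM. The share therefore says little about most of the 81 genes. The list score, the mean deviation of its genes from their average over the 12 oocytes on the log2 scale, was 0.50, -0.51, -0.62 and -0.46 in oocytes -3. It was 0.71, 0.95, -0.12 and -0.33 in oocytes -1 and 0.35, 0.052, 0.40 and -0.92 in oocytes -5. Replicate 1 lay within the range of the neighbours, and the other 3 oocytes -3 lay below 7 of the 8 neighbours, all but replicate 4 of -5. The median was -0.81 without replicate 1, -0.34 without replicate 3, and -0.74 without both.

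In rps-6, a protein of the small ribosomal subunit, the levels were 74.7, 37.8, 45.1 and 30.6 CPM in oocytes -3, against 154, 228, 62.9 and 32.2 CPM in oocytes -1 and 108, 69.1, 99.0 and 30.6 CPM in oocytes -5. The neighbours spread over a wider range than oocytes -3 and overlapped them. Aminoacyl-tRNA synthetase genes, which charge tRNAs, had a median of -0.17 and were below both neighbours in 19 of 32 cases (38.5% of all genes). The largest ratios among them were 0.84 for the aspartyl enzyme gene dars-1, which was separated above, -0.71 for ears-1, -0.67 for iars-1 and -0.57 for qars-1. Mitochondrial ribosomal protein genes had a median of 0.11, with 38 of 70 above both neighbours (37.6% of all genes), but -0.086 without replicates 1 and 3. The largest ratios were -1.03 for mrpl-45, 0.98 for mrpl-54, 0.75 for mrpl-53 and 0.68 for mrpl-13.

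All 8 subunit genes of the CCT chaperonin had a ratio below 0, beside 52.6% of all genes. Of the 8, 6 were below both neighbours, beside 38.5% of all genes. Their median was -0.29, and cct-3 (-0.85) and cct-8 (-0.64) were separated below, as were 0.769% of all genes. The gene cct-8 had 117, 131, 109 and 121 CPM in oocytes -3, against 225, 151, 174 and 156 CPM in oocytes -1 and 190.3, 212, 208 and 182 CPM in oocytes -5, so all 4 oocytes -3 agreed closely and lay under every neighbour. The ratios of cct-4 and cct-1 were -0.37 and -0.31. Without replicates 1 and 3 of oocyte -3 the median was -0.20 and 2 of the 8 were above 0. The list score was -0.50, 0.077, -0.23 and -0.32 in oocytes -3, against 0.075, -0.11, 0.15 and -0.074 in -1 and 0.26, 0.090, 0.25 and 0.33 in -5, and replicate 2 lay within the range of oocytes -1. Heat shock chaperone genes had a median of -0.18, with 12 of 17 below 0, beside 52.6% of all genes. They were led by hsp-6 (-0.77), dnj-19 (-0.58), hsp-16.2 (0.54) and sip-1 (0.48).

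Genes of the mitochondrial genome were higher in the middle oocyte. All 12 protein-coding genes had a ratio above 0, beside 47.4% of all genes, and 10 were above both neighbours, beside 37.6%. Their median was 0.54. The largest ratio was 1.19, for WBGene00010965, which the reference annotation leaves without a symbol. The complex I subunit gene ND1 had 835, 368, 188 and 405 CPM in oocytes -3, against 203, 227, 159 and 179.9 CPM in oocytes -1 and 281, 321, 349 and 318 CPM in oocytes -5, a ratio of 0.82. ND6, another complex I subunit gene, had 10412, 4494, 4649 and 5477 CPM in oocytes -3, against 3737, 4798, 3303 and 3048 CPM in -1 and 3371, 4660.1, 5307 and 2814 CPM in -5, a ratio of 0.69. In ND1, replicates 1, 2 and 4 of oocyte -3 lay above all 8 neighbours, while replicate 3 lay among oocytes -1. The median ratio of the 12 genes was 0.32 without replicate 1, 0.69 without replicate 3 and 0.47 without both. No gene of the 12 was separated, beside 1.22% above and 0.769% below of all genes.

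Mitochondrial transcripts took 0.857 to 1.68% of the counts in oocytes -3, against 0.694 to 0.988% in oocytes -1 and 0.874 to 1.03% in oocytes -5. For nuclear genes of the respiratory chain and ATP synthase the median ratio was 0.057, or -0.12 without replicates 1 and 3. Of these, 19 of 39 were above both neighbours, beside 37.6% of all genes, and nuo-5 (0.74), asg-1 (0.64), cox-15 (0.61) and atp-1 (0.60) had the largest ratios. In central carbon metabolism the median was -0.085, with fum-1 (1.31), aldo-2 (0.82), gpd-2 (-0.47) and idh-2 (0.42) the farthest from 0.

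Histone transcripts were higher in the middle oocyte as well. The kit captures polyadenylated RNA, and near-identical histone genes can share or lose reads, so single genes are uncertain. Of 47 measured genes, 39 had a ratio above 0, beside 47.4% of all genes. Above both neighbours were 37, beside 37.6% of all genes, and the median was 0.57. The gene his-62 had 163, 80.1, 132 and 65.7 CPM in oocytes -3, against 34.7, 47.8, 32.7 and 52.03 CPM in oocytes -1 and 33.6, 66.1, 62.7 and 29.6 CPM in oocytes -5, a ratio of 1.295. Its lowest oocyte -3 fell just short of its highest neighbour. The ratios of his-41, his-3 and his-59 were 1.12, 0.95 and 0.89, and his-41 shares 31.1% of its exonic bases with another gene. Only his-35 was separated (above, 0.45), beside 1.22% of all genes. The median of the list was 0.30 without replicate 1 and 0.21 without replicates 1 and 3.

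**Figure D4:**
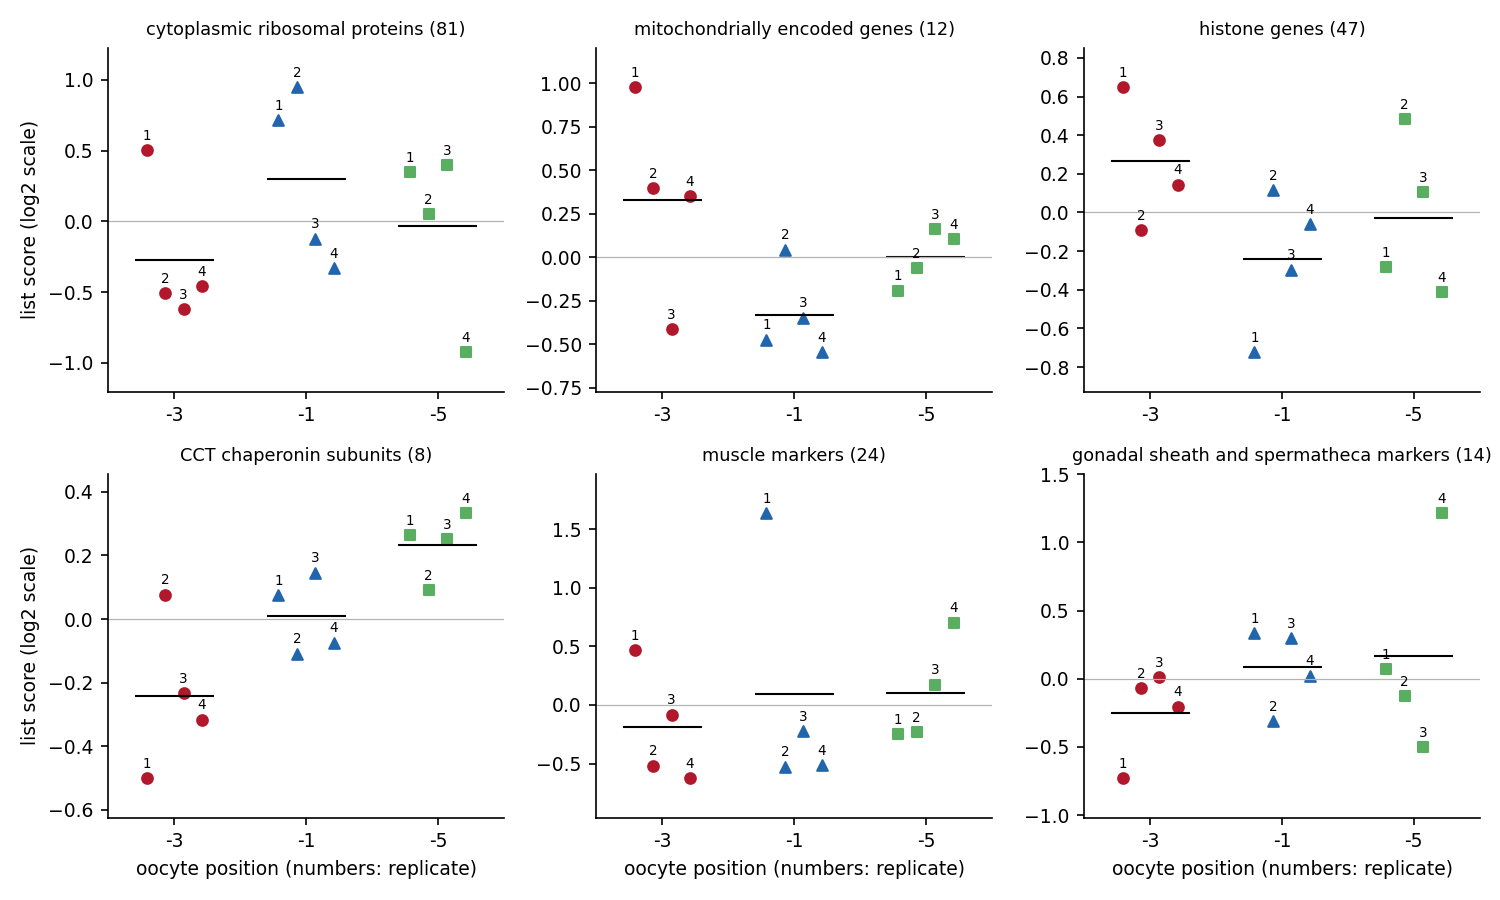
Scores of 6 gene lists in each oocyte, the mean over a list's genes of log2(CPM + 1) less the gene's mean over the 12 oocytes (y axis, log2 scale), by position. Points are single oocytes with their replicate numbers, bars are means of 4, and the number of genes is in brackets. Ribosomal protein scores are -0.62 to -0.46 in 3 of the oocytes -3 and 0.50 in replicate 1, and the muscle marker score of replicate 1 of oocyte -1 is 1.63.

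Maternal regulators had a median near that of all genes, with a few members apart. The 53 measured genes of maternal RNA-binding regulators had a median ratio of -0.089, with 15 above both neighbours and 19 below both (37.6% and 38.5% of all genes). Besides nos-2, the members cpb-1 and ife-3 were separated above, 3 of 53 beside 1.22% of all genes. The CPEB homologue cpb-1 had 28.2, 41.3, 44.6 and 37.0 CPM in oocytes -3, against 17.2, 17.8, 17.5 and 25.19 CPM in oocytes -1 and 23.5, 24.1, 16.9 and 21.8 CPM in oocytes -5, a ratio of 0.88. The Pumilio gene fbf-2 (0.84) and nos-1 (0.83) followed without separation. The 18 P granule genes had a median of -0.086, led by deps-1 (0.57), meg-3 (-0.53), ddx-19 (-0.44) and mip-1 (-0.38).

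Of 53 Argonaute and small RNA genes, 3 were separated above, beside 1.22% of all genes, while the list's median was -0.11. The nucleotidyltransferase gene mut-2, which tails RNAi targets, had 12.5, 13.98, 18.1 and 12.19 CPM in oocytes -3, against 2.92, 6.01, 3.82 and 8.48 CPM in oocytes -1 and 7.22, 5.54, 2.91 and 5.90 CPM in oocytes -5, a ratio of 1.41. It was followed by rde-10 and tofu-6, and among genes that were not separated parn-1 had a ratio of -0.80, which was -1.50 without replicate 4 of oocyte -3, and mut-15 one of 0.68. The Notch and stem cell list had a median of 0.30, with 7 of 12 above both neighbours and 3 below both (37.6% and 38.5% of all genes). Of the 12, 2 were separated above (1.22% of all genes), sygl-1 and the presenilin gene hop-1, with 16.7, 17.5, 20.7 and 12.4 CPM in oocytes -3, against 11.5, 8.65, 7.75 and 11.6 CPM in -1 and 9.36, 11.8, 8.24 and 8.02 CPM in -5, a ratio of 0.81. The transcription cofactor gene sel-8 stood the other way at -1.00, and the receptor gene glp-1 itself had a ratio of 0.0014.

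Genes of transcription and RNA export were split. Among 40 genes of RNA polymerase II and its factors (median -0.011), 2 were separated above, beside 1.22% of all genes. These were the cyclin T gene cit-1.2 (1.38) and the TFIID subunit gene taf-9 (1.02), followed by taf-13 (0.57) and taf-7.2 (-0.56). In taf-9 the levels were 91.4, 50.9, 97.4 and 53.5 CPM in oocytes -3, against 31.2, 37.9, 42.9 and 44.99 CPM in oocytes -1 and 34.0, 27.5, 40.3 and 30.8 CPM in oocytes -5. Nuclear pore and export genes had a median of -0.12, with 25 of 44 below both neighbours, beside 38.5% of all genes. Among them nxf-2 (1.321) and npp-16 (0.74) stood above and npp-21 (-0.64) and npp-13 (-0.61) below. Splicing genes had a median of -0.053, led by sfa-1 (-0.57), mog-4 (-0.51), snrp-200 (-0.44) and prp-19 (-0.40).

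Genes of chromosomes, the spindle and the cell cycle had medians close to that of all genes. Among 45 genes of the meiotic spindle and centrosome (median -0.043), the gamma-tubulin gene tbg-1 alone was separated above, beside 1.22% of all genes. It had 38.2, 41.02, 36.2 and 40.4 CPM in oocytes -3, against 27.2, 14.3, 17.96 and 20.7 CPM in oocytes -1 and 18.2, 9.34, 14.2 and 16.9 CPM in oocytes -5, a ratio of 1.17, and its 4 oocytes -3 lay within 5 CPM of each other. The kinesin-1 motor gene unc-116 (-1.16), the dynein heavy chain gene dhc-1 (-0.83) and klp-18 (-0.69) had the lowest ratios. The 54 cell cycle and maturation genes had a median of -0.088. Of these 2 were separated, the INCENP gene icp-1 above (0.19) and the phosphatase gene gsp-1 below (-0.33), beside 1.22% and 0.769% of all genes. The CDK inhibitor gene cki-1 (1.47), mek-2 (-1.03), the securin gene ify-1 (0.75) and ksr-1 (-0.65) had the largest ratios. Without replicate 3 of oocyte -3 that of mek-2 was -1.62, and without replicate 4 that of ksr-1 was -1.53.

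Of 47 meiotic chromosome genes none was separated, beside 1.22% above and 0.769% below of all genes, and the median was -0.020. The synaptonemal complex genes syp-2 (0.71) and syp-3 (0.65), the break-forming gene spo-11 (0.71) and the kinase gene chk-2 (0.59) were the farthest from 0. In replication the median of 44 genes was -0.043. The single-strand binding gene rpa-2 (0.53) was separated above and the helicase subunit gene mcm-6 (-0.44) below, beside 1.22% and 0.769% of all genes. The largest ratios there were 0.74 for psf-2, 0.65 for gmn-1, 0.59 for lin-52 and 0.58 for psf-1. Germ cell death genes had a median of 0.062, with ced-8 (1.63), ced-9 (-0.59), ced-1 (-0.57) and ced-10 (-0.36).

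Protein turnover genes gave single members that stood out. The proteasome subunit gene rpn-9 had 77.8, 97.7, 81.8 and 91.1 CPM in oocytes -3, against 29.1, 49.4, 46.5 and 54.97 CPM in oocytes -1 and 35.2, 37.0, 41.1 and 41.1 CPM in oocytes -5, a ratio of 1.06, in a list of 33 with a median of 0.039. Its 4 oocytes -3 agreed closely, far above every neighbour. The next were rpn-13 (0.83), rpn-5 (0.57) and rpt-6 (0.44), none of them separated. SUMO itself, smo-1, had 203, 154, 260.4 and 127 CPM in oocytes -3, against 123.7, 86.2, 114 and 95.7 CPM in oocytes -1 and 98.7, 112, 107 and 94.1 CPM in oocytes -5, a ratio of 0.84, and its activating enzyme subunit gene aos-1 was separated above at 0.47. The SUMO protease gene ulp-5 stood lower at -1.48, ubc-6 was at 0.68 and ulp-3 at -0.60, and the median of the 27 SUMO and ubiquitin genes was -0.042.

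The list of eggshell proteins, yolk uptake and egg activation had a median of -0.033. Of its genes 15 of 43 were above both neighbours and 15 below both, beside 37.6% and 38.5% of all genes. The permeability barrier gene perm-3 was separated above (0.53). The fatty acid synthase gene fasn-1 (-1.45), perm-2 (-0.97), perm-4 (-0.93) and gna-2 (0.92), which makes a chitin precursor, had the largest ratios, and without replicate 3 of oocyte -3 both perm-2 and perm-4 stood at -2.60. In fatty acid and lipid droplet genes the median was -0.14 with 20 of 28 below 0, beside 52.6% of all genes. Beside fasn-1, the members pmt-2 (1.22), elo-2 (0.98) and fat-4 (-0.63) stood out. Those of pmt-2 and elo-2 were -0.34 without replicate 1 and 0.15 without replicate 3 of oocyte -3, and elo-5, separated below, had too few counts in oocytes -3 for a ratio.

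**Figure D5:**
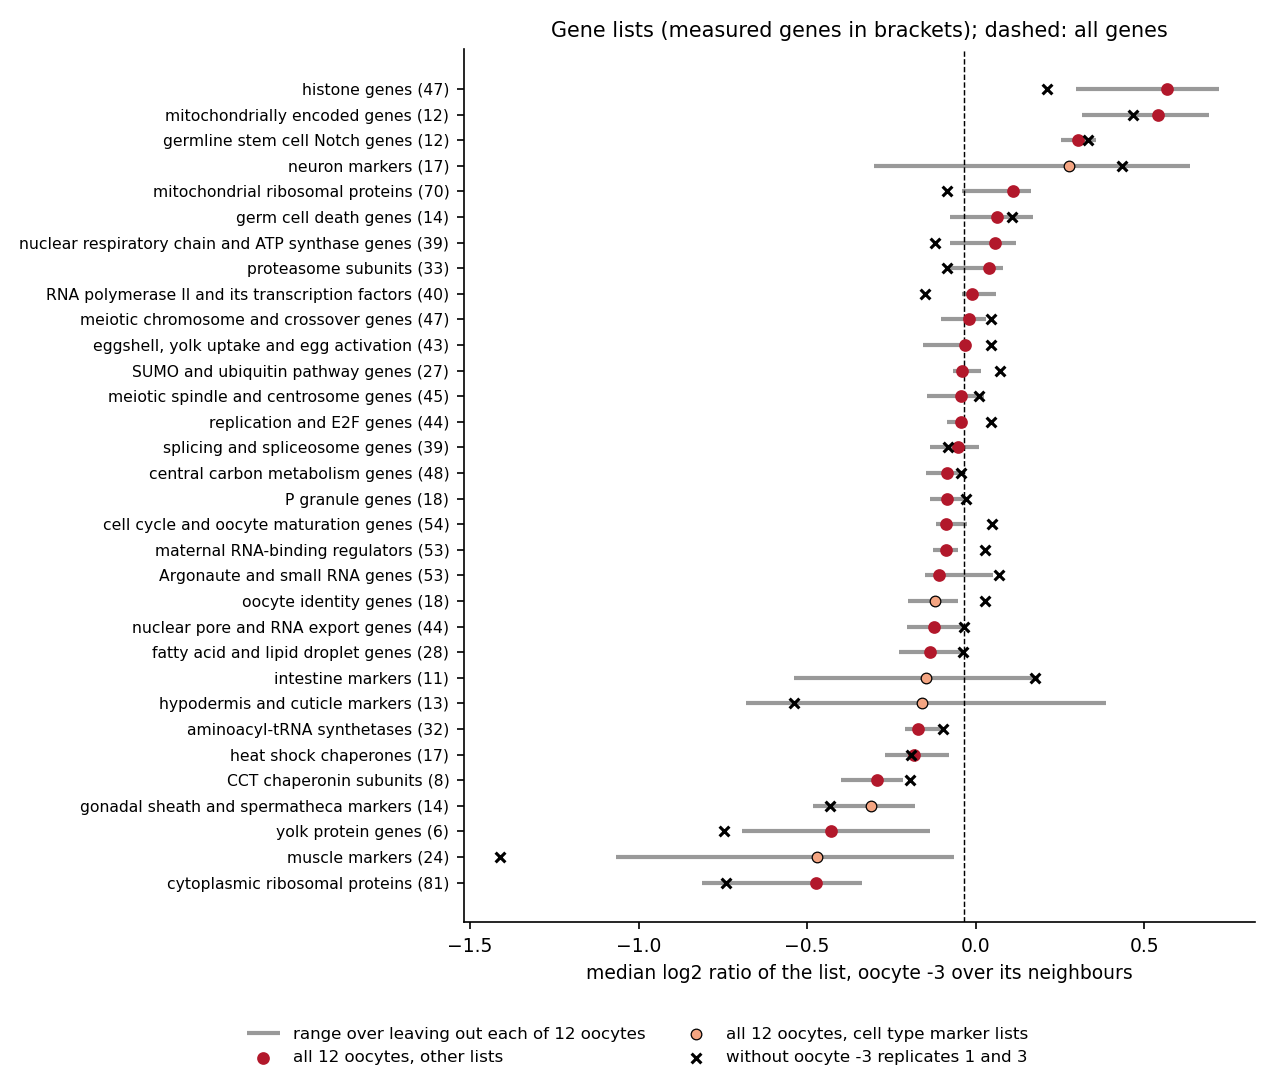
Median log2 ratio of oocyte -3 over its neighbours (x axis) for 32 gene lists (y axis, measured genes in brackets), with red points for all 12 oocytes and pale outlined points for cell type markers. The uterine marker list, with the lowest median of all at -3.09, is not plotted. Grey bars span the medians on leaving out each oocyte in turn, crosses leave out replicates 1 and 3 of oocyte -3, and the dashed line is the median of all genes, -0.034. Histones (0.57) and mitochondrial genes (0.54) lie right of the line and ribosomal proteins (-0.47) left of it, each with its whole bar on its side, while the muscle bar reaches from -1.07 to -0.063.

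The labelled cell type was checked against 18 oocyte identity genes, all of which were measured. Their median ratio was -0.12, and 0.029 without replicates 1 and 3. Of the 18, 3 were above both neighbours and 10 below both, beside 37.6% and 38.5% of all genes. The largest ratios were -0.57 for cpg-2, -0.55 for cpg-1 and -0.50 for cbd-1, which encode eggshell proteins, and -0.46 for the translational repressor gene gld-1. The yolk receptor gene rme-2 had 3241, 2645, 483 and 1600.1 CPM in oocytes -3, against 1023, 1453, 1271 and 1098 CPM in oocytes -1 and 3062, 2532, 3405 and 1914 CPM in oocytes -5, and replicate 3 of oocyte -3 was the lowest of the 12.

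Markers of other tissues varied from oocyte to oocyte. Of 28 muscle markers, 24 were measured, with a median of -0.47 and 14 below both neighbours, beside 38.5% of all genes. The list was led by mlc-3 (-1.29), clik-1 (-1.18), lev-11 (-0.94) and pat-10 (-0.92). Muscle markers took 0.0663 to 0.166% of counts in oocytes -3, against 0.133 to 0.307% in -1 and 0.0800 to 0.202% in -5, and myo-3 did not pass the filter. Replicate 1 of oocyte -1 was the highest in score, and without it the median was -0.063 and the ratios of mlc-3, clik-1 and pat-10 were -0.084, -0.29 and -0.22. That of lev-11 was -1.70 without replicate 1 of oocyte -3, and the median -1.07. Without replicates 1 and 3 of oocyte -3 the median was -1.41, and without the 3 neighbours of low share in abundant genes it was 0.15. Their part in the ribosomal and histone differences was not tested.

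For markers of the gonadal sheath and the spermatheca the median was -0.31 over 14 of 21 genes, and their share of counts was 0.0298 to 0.0692% in oocytes -3, against 0.0635 to 0.0971% in -1 and 0.0445 to 0.171% in -5. Of the 14, 11 had a ratio below 0, beside 52.6% of all genes, and 3 above. Those above were unc-60 (1.79, or 0.33 without replicate 1 of oocyte -3), acy-4 (0.61) and tln-1 (0.20), all under 5 CPM. Among members of at least 5 CPM, inx-8, vab-10 (-0.83), nmy-1 (-0.81) and let-502 (-0.42) had the largest ratios. The sheath genes inx-9 and lim-7 were at 0 in 2 oocytes -3 each, but their -3 levels lay between those of -1 and -5. The intestine (11 of 24 genes, median -0.15), hypodermis (13 of 28, -0.16) and neuron (17 of 27, 0.28) lists each had a median of the other sign on leaving out 1 oocyte, to 0.19 without replicate 4 of -1, to 0.39 without replicate 4 of -5, and to -0.30 without replicate 2 of -3. In intestine, cpl-1 was at -1.04, or -2.29 without replicate 3 of oocyte -3, elt-7 at 0.52 and erm-1 at -0.15. In hypodermis, mlt-10 was at -0.84, col-124 at 0.77, or -0.15 without replicate 1 of oocyte -3, lin-26 at 0.46 and col-140 at -0.44. In neuron, unc-64 was at -1.83 and separated below, unc-119 at 0.76, ric-19 at 0.71, or -0.16 without replicate 1 of oocyte -3, and ric-4 at 0.65.

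Yolk protein transcripts, which are made in the intestine, had position levels of 4.80 to 40.002 CPM in oocytes -3, against 8.66 to 42.8 CPM in -1 and 11.6 to 55.3 CPM in -5. All 6 had a ratio below 0, beside 52.6% of all genes. The ratios were -1.14 for vit-1, -0.93 for vit-5, -0.65 for vit-6, -0.21 for vit-2, -0.15 for vit-3 and -0.13 for vit-4. The last was 0.48 without replicate 2 of oocyte -5, and the median of -0.43 was -0.14 without replicate 4 of oocyte -1. These genes are near-identical copies in part, so their counts are uncertain. Among 10 uterine markers 5 were measured, with a median of -3.09. The gene ule-5 had 9.04, 0.421, 0.683 and 0.257 CPM in oocytes -3, against 55.1, 42.6, 19.8 and 50.5 CPM in -1 and 4.20, 2.45, 2.33 and 0.115 CPM in -5, and ule-3 had 6.78, 0, 0.186 and 1.29 CPM, against 58.3, 16.6, 24.02 and 42.1 CPM in -1 and 0.555, 1.35, 14.8 and 0.286 CPM in -5. Both were high at -1 and low at -3 and -5, the pattern also seen for Y62H9A.5 and ZK813.3. Their ratios of -3.09 and -3.26 were -5.61 and -5.33 without replicate 1 of oocyte -3. The others were exc-6 (-3.35, or -4.63 without replicate 4 of oocyte -3), ule-4 (-2.41) and ule-2 (-0.97), of which the last 2 were -1.14 and 0.35 without replicate 1 of oocyte -5. Of 42 sperm markers, spe-38 (-0.84) and spe-41 (0.46) alone were measured, both under 5 CPM.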

How the data were processed

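The deposited count table gives raw whole-number counts per gene for 12 libraries of 1 oocyte each, made by the authors with featureCounts 1.6.4 and the WormBase WS271 annotation per the file headers. The submitters' processing notes list cutadapt 1.18, FastQC 0.11.5, STAR, featureCounts 1.5.3 and DESeq2 1.32.0. No genome build was stated in those sources, coordinates are those of the count table, and the authors' comparison tables were not used here. No row lacked a gene (0 rows). Symbols came from a reference table for 44018 of 46903 genes, and biotypes from the reference annotation.

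Genes were filtered with filterByExpr by position (8718 kept, with at least 99.9% of the counts of each library) and libraries scaled with TMM in edgeR 4.0.16 under R 4.3.3. Ratios were computed in Python 3.11.15 with pandas 2.3.3 and numpy 2.4.6, with a floor of 3 counts summed over a side, and plotted with matplotlib 3.10.9. The calculation was tested on simulated data. With 1 cell per library and no animal of origin in the labels, the planned description without tests was kept and no p-value is given.

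The genes named are the 12 separated genes with the highest and the 12 with the lowest ratio, the 5 highest and 5 lowest ratios of all, the 10 most abundant and the 5 most variable at -3, all of at least 20 CPM. Beside these are the 2 to 4 members of each list with the largest ratios among those of at least 5 CPM, and every member of the yolk and uterus lists. Separated members of a list outside these, and others marked in the text, were chosen after their values were seen. The comparison and the 34 gene lists were chosen with earlier results of these data known.

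Libraries held 8358019 to 20446599 counts, and 3 counts in 1 library correspond to 0.147 to 0.359 CPM. Alternatives were other scalings including the size factors of DESeq2 1.42.0, other filters and folds, summed counts, log means, and leaving out each oocyte, replicates 1 and 3 of oocyte -3 together, or 3 neighbours with a low share of counts in the 10 most abundant genes, the last chosen after the data were seen.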

Additional observations from a re-analysis of the deposited data

Results flagged for a closer look

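Single oocytes lay far from the other 3 of their position in 25 of 243 groups of 4 values examined (10.3%). Chance flags about 1 in 20 groups, but some of these genes were named for their wide spread or extreme ratio, so the share cannot be read against that. The gap to the nearest value, divided by the range of the group, was above Dixon's critical value in each.

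Replicate 1 of oocyte -3 was the one apart in several genes and lists. It was low in cct-3 at 57.5 CPM (the others 117 to 129), in Y75B8A.7 at 20.5 CPM (41.7 to 44.8) and in mrps-9 at 42.1 CPM (86.1 to 94.0). It was high in F59C6.16 at 163 CPM (7.201 to 16.02), in F23D12.11 at 129 CPM (8.001 to 17.4), in ZK813.3 at 19.4 CPM (0.0842 to 0.412) and in the elongation factor gene eef-1A.1 at 6737 CPM (5383 to 5581). Its score was 0.50 for cytoplasmic ribosomal proteins (the others -0.62 to -0.46), -0.41 for P granule genes (0.0031 to 0.059) and -0.26 for SUMO and ubiquitin genes (0.024 to 0.074). Replicate 2 of oocyte -3 had a yolk protein score of -0.72 (the others -0.052 to 0.012).

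Replicate 3 of oocyte -3 was high in cht-3 at 25.8 CPM (1.44 to 3.23), ddo-3 at 46.9 CPM (4.42 to 6.23), C44B7.5 at 595 CPM (0.646 to 19.3) and T04G9.7 at 226 CPM (0.388 to 24.9), and low in Y39B6A.10 at 57.4 CPM (102 to 108). Replicate 4 of oocyte -5 was high in 3 of the same genes, cht-3 at 269.7 CPM (11.6 to 22.8), ddo-3 at 318 CPM (11.5 to 47.5) and T04G9.7 at 788 CPM (35.98 to 148). It was high as well in the sheath gene inx-8 at 673 CPM (10.7 to 46.1) and in skpo-1 at 998 CPM (32.8 to 82.4). Without that oocyte the ratios were -1.303 for cht-3, -0.32 for ddo-3, -0.18 for T04G9.7, -1.63 for inx-8 and 0.048 for skpo-1.

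The other values apart were ugt-45 at 58.5 CPM in replicate 3 of oocyte -1 (the others 37.1 to 39.3), nhr-133 at 35.0 CPM (16.9 to 18.2) and Y62H9A.5 at 25.12 CPM (0.0573 to 3.57) in replicate 3 of oocyte -5, and the muscle marker score of 1.63 in replicate 1 of oocyte -1 (-0.53 to -0.23).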

How the results depend on the processing

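No paired analysis was possible because the results come from no test and the replicate numbers are not tied to animals in the labels. The counts past the fold, 554 higher and 710 lower, were 212 and 357 with levels from means of log2(CPM + 1), 1649 and 2566 of 13948 genes with no filter beyond 1 count, 138 and 130 of 6503 genes at 5 CPM or more, and 1331 and 1332 at a fold of 1.5. Separated genes, 106 above and 67 below, numbered 426 and 397 when 3 of the 4 oocytes -3 sufficed, and 321 and 236 without replicates 1 and 3 of oocyte -3. Without the 3 neighbours of low share in the 10 most abundant genes, 117 were below. Fewer oocytes give more separated genes by construction. On leaving out each oocyte in turn, 426 to 702 genes were past the fold higher and 702 to 950 lower, 3107 to 3343 lay above both neighbours and 3094 to 3614 below both, and 114 to 248 were separated above and 77 to 218 below. The median SD at -3 was then 0.323 to 0.451, and 0.203 without replicates 1 and 3, where it rests on the 2 remaining oocytes.

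Direction turned in a few values, and the cause was not tested. A turn was counted only for gene ratios of at least 1 and list medians of at least 0.25 in size. Smaller values that changed sign, such as the ratios of C44B7.5 and F23A7.8 and the intestine and hypodermis medians, are given above and were not counted. The neuron median was -0.0024 from summed counts and -0.30 without replicate 2 of oocyte -3, and ranged up to 0.64 on leaving out 1 oocyte. The ratio of skpo-1 was 0.048 without replicate 4 of oocyte -5, -3.46 without replicate 3 of oocyte -3 and 0.50 without the 3 low-share neighbours, where the muscle median was 0.15. Scaling by total counts moved the median of all genes to -0.16, with 2526 genes above both neighbours and 4189 below both. Of the other recomputed values, 628 list medians and 1063 gene ratios stayed within 1 SD over the oocytes -3, and 29 and 15 moved by more. A wide SD lets a large change count as staying, as for inx-8 (SD 1.85), which went from -3.21 to -1.63 without replicate 4 of oocyte -5. Depth limits ratios under 20 CPM, and oocytes of 1 position cannot be told apart from oocytes of 1 animal.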
